A study of Mus musculus with 8 samples.

Results

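The chemokine system of the mouse liver was described through 51 genes whose array name begins with Ccl, Cxcl, Cx3cl, Xcl, Ccr, Cxcr, Cx3cr or Xcr followed by a digit. They are 35 ligands and 16 receptors, read by 67 of the 41174 probes of the array, and they stand among 27670 genes in all. The rule uses names, and the gene family was picked with earlier results of these data known. A member counted as measured where a probe was well above background on both arrays of at least 1 group, which 40 members were (29 ligands and 11 receptors). The other 11 were Ccl1, Ccl11, Ccl22, Ccl28, Cxcl2, Cxcl15, Ccr1, Ccr1l1, Ccr4, Ccr8 and Ccr10, and no fold is given for them. The names Cxcl4, Cxcl7 and Ccl27 are those of the array, and RefSeq now calls these genes Pf4, Ppbp and Ccl27a. Probes for Ccl19, Ccl21c and Ccl27 may also read near-identical gene copies, so their signal cannot be given to 1 copy.

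Chemokines are small secreted proteins, grouped by the spacing of their first cysteines into CC, CXC, CX3C and XC classes, that guide leukocytes along concentration gradients. They act through G protein-coupled receptors on the leukocyte, which turn on integrins and the actin cytoskeleton. In liver they are made by hepatocytes, Kupffer cells, stellate cells, endothelium and bile duct cells, and they draw monocytes, neutrophils and lymphocytes into injured tissue.

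Liver RNA came from C57BL/6 mice, 6 months old and female per the labels, in 4 groups with 2 one-colour Agilent arrays each. KO mice carried Albumin-Cre and Dicer1loxP/loxP, so that Cre is driven in hepatocytes and removes Dicer1, the ribonuclease that makes mature microRNAs. Whether other liver cells kept the gene was not measured. WT mice were Dicer1loxP/loxP littermates without Cre, so the controls also carried the floxed alleles. The groups were KO given N-ethyl-N-nitrosourea (ENU, an alkylating mutagen), WT given ENU, KO given vehicle and WT given vehicle. ENU was injected once into the peritoneum at 120 mg/kg in 2 ml/kg and liver was taken 15 days later, while vehicle mice received DMSO and their day is not given. The design asks how the chemokine genes differ when hepatocytes lack Dicer1, how they differ after a genotoxic dose, and whether the ENU difference depends on genotype.

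The 2 arrays of a group differed by about the noise between spots (median standardised difference 0.553 to 0.741, where spot noise alone gives 0.688, and 12.1 to 28.8 between groups) and were treated as a single RNA sample. Where 2 groups alone are set side by side there is thus no replicate check, and the wording is higher or lower. Rose and fell are kept for members with an adjusted p under 0.05 in a limma fit of genotype and treatment over the 4 RNA samples. A gene's own spread in that fit is the difference between the ENU difference in KO and that in WT. The fit draws this spread toward that of all genes, with 2.91 prior degrees of freedom beside 1 residual. An SE or p is thus not a measure of that gene's variation alone. How many mice gave each RNA sample is not stated in the labels. All ENU arrays lay on 1 slide and all vehicle arrays on another, and KO held the same positions on both slides with WT on the others, so the slide cannot be told apart from ENU, nor the position from genotype. The share of spots well above background was 64.4% to 69.3% on the KO arrays and 54.7% to 64.1% on the WT arrays, with 0 saturated spots. The 75th percentile of the signal was 629 to 681 on the KO arrays and 437 to 524 on the WT arrays. Detection was thus not equal between the genotypes, with the WT arrays dimmer. Throughout, a log2 level is the log2 of a probe's signal over the 75th percentile of its array, each gene is read by its brightest probe that passed, and levels of different genes are not compared. The Dicer1 probe A_51_P333060 had log2 levels of -3.94 and -4.10 on the KO ENU arrays, -2.62 and -2.41 on the WT ENU arrays, -4.13 and -4.51 on the KO vehicle arrays and -1.92 and -1.80 on the WT vehicle arrays, so all KO arrays lay below all WT arrays. The second probe, A_51_P483059, was lower in KO by smaller log2 differences, -0.25 after ENU and -0.50 on vehicle, and the labels do not say which probe lies in the deleted part. The Y-linked genes Ddx3y, Eif2s3y, Kdm5d and Uty each had a probe well above background on all 8 arrays, which goes against the label female in all 4 groups alike.

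KO livers carried higher levels of most measured chemokine genes than WT livers. In such bulk RNA, more cells of a type and more RNA per cell cannot be told apart. In the fit over 4 RNA samples 26 of the 40 measured members passed, where 32.2% of all 18137 measured genes did. Of these 24 rose in KO (16.9% of all genes) and 2 fell (15.3%). Of the ligands 16 of 29 rose and 2 fell, and of the receptors 8 of 11 rose and 0 fell. By class, 9 of 16 CC ligands, 5 of 11 CXC ligands, 2 of 2 CX3C and XC ligands, 4 of 6 CC receptors, 3 of 3 CXC receptors and 1 of 2 CX3C and XC receptors rose. The median log2 difference of KO minus WT over both treatments was 1.42 for ligands and 1.52 for receptors, against -0.12 for all measured genes. It was 1.45 for the CC ligands, 1.29 for the CXC ligands and 0.89 for the CC receptors. These medians include members with a WT group not well above background, and they depend on the background correction (below). After ENU 26 members were more than 2-fold higher in KO (16.2% of all genes) and 3 lower (14.2%), and on vehicle 23 were higher (17.3%) and 2 lower (11.1%). On both treatments 21 were more than 2-fold higher (12.8% of all genes) and 1, Ccl27, more than 2-fold lower (7.55%).

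The filter admits a gene through the group where it is bright, and 6 members (Ccl3, Ccl12, Ccl20, Ccr7, Cxcl5 and Cxcr4) passed through a KO group alone, against 0 through a WT group alone. All of these but Ccl12 are among the members that rose, and so are in the ligand, receptor and class counts above. For them a higher KO signal was favoured by the filter itself. A separate fit was limited to the 14535 genes well above background on all 8 arrays, 27 members among them. In it 13 of the 27 rose in KO (48.1%, against 14.8% of those genes) and 3 fell (11.1%, against 25.6%). These include Ccl19, which rose, and Cxcl11, which fell, though neither passed in the fit of all measured genes. The median log2 difference of the 27 was 0.64 on vehicle and 1.005 after ENU, against -0.25 and -0.19 for those genes. Of the 23 members more than 2-fold higher on vehicle, 9 had a group with neither array well above background, and of the 26 after ENU 3 did. A group with 1 of 2 arrays well above background counted as measured. This held for Ccl4, Ccl12 and Ccl17 in WT on vehicle and for Ccl12, Ccr7 and Cxcr4 in WT after ENU, so their folds there are less sure. Where the bright group exceeded the dim group's detection limit, the fold is given as at least N-fold, the bright mean over that limit. Such bounds hold for this signal and scaling alone. With the normexp background correction, which adds an offset of 50 to each signal and so pulls dim signals together, 15 of the 40 log2 differences moved by over 1.5-fold. In that setting 18 members rose and 3 fell, and the normexp value stands beside its gene where it moves a value that far or turns its direction. The median KO minus WT log2 difference of ligands went from 1.13 to 0.53 on vehicle and from 1.61 to 0.98 after ENU. That of receptors went from 1.565 to 0.95 on vehicle and from 1.47 to 1.11 after ENU. For a member with a group not well above background, the fitted difference and its p set a measured level against a signal near background, so its size is not a measured fold.

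**Figure D1:**
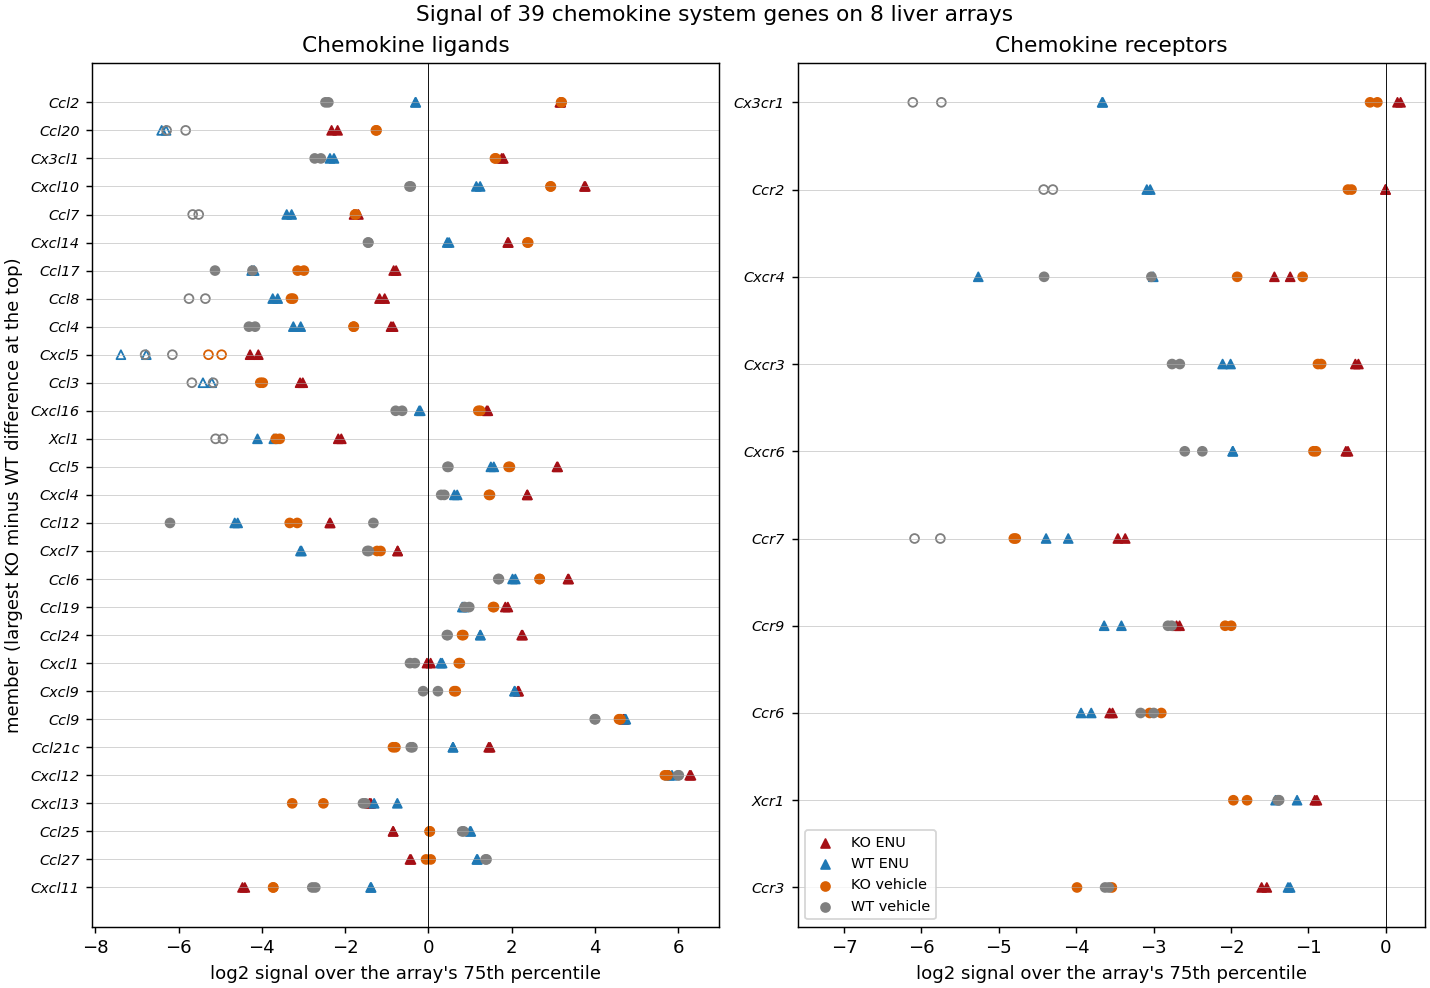
Each row is a measured member (29 ligands on the left, 10 of the 11 receptors on the right), ordered by its KO minus WT difference, and each point is 1 array, with the log2 signal over the array's 75th percentile on the horizontal axis. Red and orange KO points lie to the right of blue and grey WT points for most rows, the rows of Ccl25, Ccl27 and Cxcl11 show the opposite, and open points mark a group with neither array well above background.

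The CCR2 axis, which brings monocytes out of the bone marrow and into tissue, was higher in KO at both ligand and receptor. Ccl2, the monocyte chemoattractant read at chr11:82118723-82118782 (mm7), had log2 levels of 3.18 and 3.16 in KO and -0.31 and -0.30 in WT after ENU, and 3.19 and 3.2 in KO and -2.47 and -2.4 in WT on vehicle. The KO arrays of both treatments lay together, and the WT arrays lay below them, lowest on vehicle. Ccl2 stood 11.1-fold higher in KO after ENU and 49.6-fold (27.4-fold with normexp) higher on vehicle, and rose over both treatments by a log2 difference of 4.55 ± 0.574 (SE, limma adjusted p = 0.0161). Its receptor Ccr2 (probe at chr9:123827135-123827194) had log2 levels of -0.0035 and -0.0053 in KO and -3.04 and -3.09 in WT after ENU, and -0.49 and -0.44 in KO and -4.3 and -4.42 in WT on vehicle. It stood 8.35-fold (4.37-fold with normexp) higher in KO after ENU and at least 12.6-fold (4.07-fold with normexp) higher on vehicle, where neither WT array was well above background, and rose by 3.48 ± 0.277 (SE, limma adjusted p = 0.0104). With normexp the log2 difference of Ccr2 was 2.08, and with the mean of its 2 probes 2.48, since the dimmer probe differed by 2.28 after ENU and 0.70 on vehicle.

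Ccl7, another ligand of Ccr2, lies next to Ccl2 and had log2 levels of -1.68 and -1.78 in KO and -3.4 and -3.28 in WT after ENU, and -1.76 and -1.74 in KO and -5.66 and -5.52 in WT on vehicle. It stood 3.05-fold (1.79-fold with normexp) higher in KO after ENU and at least 5.28-fold (2.31-fold with normexp) higher on vehicle. Ccl7 rose by 2.72 ± 0.592 (SE, limma adjusted p = 0.0392). The normexp log2 difference of Ccl7 was 1.02, and with quantile normalization the call was lost (limma adjusted p = 0.063). Ccl12, the mouse gene that also encodes a Ccr2 ligand, gave -2.36 and -2.37 in KO and -4.65 and -4.58 in WT after ENU, and -3.15 and -3.33 in KO and -1.32 and -6.21 in WT on vehicle as log2 levels. Its WT vehicle arrays disagreed by 4.88 log2 units, so its difference of 1.39 ± 0.473 (SE, limma adjusted p = 0.0943), which did not pass, rests on them, and it was 0.21 with normexp. It was 2.61 (limma adjusted p = 0.0149) without WT vehicle array 1 and 0.17 without WT vehicle array 2. Ccl8, which in mouse binds Ccr8, had log2 levels of -1.05 and -1.17 in KO and -3.74 and -3.62 in WT after ENU, and -3.3 and -3.25 in KO and -5.75 and -5.36 in WT on vehicle and rose by 2.42 ± 0.195 (SE, limma adjusted p = 0.0104). All 4 KO arrays of Ccl8 lay above the WT arrays of the same treatment, by 5.93-fold (2.69-fold with normexp) after ENU and by at least 1.84-fold (1.22-fold with normexp) on vehicle, but with normexp its log2 difference was 0.85 and did not pass (limma adjusted p = 0.0904). Ccl11, an eosinophil-attracting ligand encoded in the same stretch, was not measured.

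Fractalkine and its receptor were likewise both higher in KO. Cx3cl1, a ligand tethered to the cell membrane, was read at chr8:93371329-93371388 (mm7) with log2 levels of 1.8 and 1.76 in KO and -2.27 and -2.36 in WT after ENU, and 1.62 and 1.6 in KO and -2.73 and -2.58 in WT on vehicle. No KO array came near a WT array, and the levels of the 2 treatments were alike within each genotype. Cx3cl1 stood 17.1-fold (11.1-fold with normexp) higher in KO after ENU and 19.2-fold (10.1-fold with normexp) higher on vehicle. Cx3cl1 rose by 4.18 ± 0.185 (SE, limma adjusted p = 0.00973), or 3.4 with normexp. Cx3cr1, the receptor of patrolling monocytes and many tissue macrophages, was read at chr9:119745795-119745854 with log2 levels of 0.19 and 0.15 in KO and -3.67 and -3.66 in WT after ENU, and -0.11 and -0.20 in KO and -6.11 and -5.74 in WT on vehicle. It stood 14.2-fold (5.93-fold with normexp) higher in KO after ENU and at least 15.9-fold (5.87-fold with normexp) higher on vehicle, where both WT arrays were dim. Its rise of 4.8 ± 0.522 (SE, limma adjusted p = 0.0134) was 3.27 with the mean of its 2 probes and 2.56 with normexp. The second Cx3cr1 probe was well above background on 2 of 8 arrays and differed by 2.32 after ENU and 1.17 on vehicle.

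The ligands of Cxcr3, a receptor of activated T and NK cells, did not move together. Cxcl10, an interferon-inducible ligand read at chr5:92334002-92334061 (mm7), had log2 levels of 3.77 and 3.75 in KO and 1.15 and 1.24 in WT after ENU, and 2.93 and 2.94 in KO and -0.42 and -0.45 in WT on vehicle, with every KO array above every WT array. It stood 5.9-fold higher in KO after ENU and 10.4-fold higher on vehicle. Cxcl10 rose by 2.97 ± 0.274 (SE, limma adjusted p = 0.0115). Cxcl9, induced by interferon gamma and encoded beside it, had log2 levels of 2.15 and 2.17 in KO and 2.07 and 2.07 in WT after ENU, and 0.66 and 0.62 in KO and 0.23 and -0.13 in WT on vehicle. Its KO and WT arrays lay close together after ENU, and its log2 difference of 0.34 ± 0.22 (SE, limma adjusted p = 0.29) did not pass. Cxcl11 ran the other way, with log2 levels of -4.46 and -4.41 in KO and -1.39 and -1.37 in WT after ENU, and -3.72 and -3.73 in KO and -2.72 and -2.79 in WT on vehicle, every KO array below every WT array. It was 8.32-fold (3.23-fold with normexp) lower in KO after ENU and 1.97-fold lower on vehicle. Its log2 difference of -2.02 ± 0.557 (SE, limma adjusted p = 0.0625) did not pass, though it did with normexp (-1.18, limma adjusted p = 0.0384), with the median as the scale and with an intensity trend. The receptor Cxcr3 had log2 levels of -0.39 and -0.35 in KO and -2.11 and -2.01 in WT after ENU, and -0.84 and -0.88 in KO and -2.76 and -2.66 in WT on vehicle. Cxcr3 stood 3.21-fold higher in KO after ENU and 3.62-fold (2.18-fold with normexp) higher on vehicle. Cxcr3 rose by 1.77 ± 0.185 (SE, limma adjusted p = 0.0129).

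Ccl3, Ccl4 and Ccl5, inflammatory CC ligands that draw macrophages and T cells, all rose. Ccl5 (RANTES) had log2 levels of 3.11 and 3.09 in KO and 1.5 and 1.57 in WT after ENU, and 1.96 and 1.93 in KO and 0.46 and 0.48 in WT on vehicle. It stood 2.95-fold higher in KO after ENU and 2.78-fold higher on vehicle. Ccl5 rose by 1.52 ± 0.182 (SE, limma adjusted p = 0.0152). Ccl4 had log2 levels of -0.85 and -0.90 in KO and -3.24 and -3.07 in WT after ENU, and -1.79 and -1.8 in KO and -4.31 and -4.16 in WT on vehicle and rose by 2.36 ± 0.185 (SE, limma adjusted p = 0.0104), or 1.24 with normexp. Ccl3 had -3.08 and -3.02 in KO and -5.41 and -5.2 in WT after ENU, and -3.98 and -4.04 in KO and -5.68 and -5.17 in WT on vehicle as log2 levels, with no WT array well above background. Its rise of 1.84 ± 0.279 (SE, limma adjusted p = 0.0211) was lost with normexp (0.23, limma adjusted p = 0.347), and the bound was at least 3.27-fold (1.4-fold with normexp) after ENU and at least 1.1-fold (1.01-fold lower with normexp) on vehicle.

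Cxcl16, which like fractalkine is made as a membrane protein, and its receptor Cxcr6, found on NKT and liver-resident T cells, differed by similar amounts. Log2 levels of Cxcl16 were 1.4 and 1.43 in KO and -0.19 and -0.22 in WT after ENU, and 1.25 and 1.2 in KO and -0.63 and -0.78 in WT on vehicle. It stood 3.08-fold higher in KO after ENU and 3.81-fold higher on vehicle. Cxcl16 rose by 1.78 ± 0.196 (SE, limma adjusted p = 0.0136). Cxcr6 had log2 levels of -0.49 and -0.52 in KO and -1.98 and -1.98 in WT after ENU, and -0.90 and -0.94 in KO and -2.6 and -2.37 in WT on vehicle, was 2.78-fold and 2.96-fold (1.95-fold with normexp) higher in KO after ENU and on vehicle, and rose by 1.52 ± 0.182 (SE, limma adjusted p = 0.0152). In both genes all KO arrays lay above all WT arrays. Xcl1, a T and NK cell product that attracts cross-presenting dendritic cells, had log2 levels of -2.09 and -2.16 in KO and -3.71 and -4.1 in WT after ENU, and -3.67 and -3.57 in KO and -5.11 and -4.93 in WT on vehicle. It rose by 1.59 ± 0.204 (SE, limma adjusted p = 0.0165), which normexp reduced to 0.40 (limma adjusted p = 0.194). Its receptor Xcr1 had log2 levels of -0.92 and -0.89 in KO and -1.43 and -1.15 in WT after ENU, and -1.79 and -1.97 in KO and -1.38 and -1.4 in WT on vehicle, and its difference of -0.056 ± 0.285 (SE, limma adjusted p = 0.889) did not pass.

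Cxcl12, which retains haematopoietic cells in their niche, had log2 levels of 6.31 and 6.28 in KO and 5.85 and 5.79 in WT after ENU, and 5.75 and 5.68 in KO and 6.0 and 6.02 in WT on vehicle. KO was above WT after ENU (0.47) and below it on vehicle (-0.29), both as log2 differences. The difference over both treatments, 0.091 ± 0.265 (SE, limma adjusted p = 0.805), did not pass, and it was -0.11 with the median as the scale and 0.74 with quantile normalization. Its receptor Cxcr4 had log2 levels of -1.44 and -1.24 in KO and -5.26 and -3.0 in WT after ENU, and -1.92 and -1.07 in KO and -3.03 and -4.42 in WT on vehicle. The KO arrays lay above all WT arrays, while the WT arrays of a group differed by up to 2.26 log2 units. Cxcr4 rose by 2.51 ± 0.231 (SE, limma adjusted p = 0.0115), or 1.12 with normexp, and after ENU its difference ranged between 1.67 and 3.93 when either WT ENU array was left out.

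Ccl20, which draws Ccr6-bearing lymphocytes and dendritic cells to epithelia, had log2 levels of -2.32 and -2.18 in KO and -6.3 and -6.41 in WT after ENU, and -1.26 and -1.24 in KO and -5.83 and -6.29 in WT on vehicle. No WT array was well above background. Ccl20 stood at least 5.68-fold (1.99-fold with normexp) higher in KO after ENU and at least 7.47-fold (3.31-fold with normexp) higher on vehicle. Ccl20 passed the filter through KO groups alone, and its fitted log2 difference of 4.45 ± 0.254 (SE, limma adjusted p = 0.010), or 1.36 with normexp, rests on WT signals near background. Its receptor Ccr6 had log2 levels of -3.57 and -3.53 in KO and -3.94 and -3.81 in WT after ENU, and -3.05 and -2.9 in KO and -3.0 and -3.17 in WT on vehicle, and its difference of 0.21 ± 0.188 (SE, limma adjusted p = 0.414) did not pass and was -0.17 with normexp. Ccl17, a ligand of Ccr4 made by dendritic cells, had log2 levels of -0.77 and -0.83 in KO and -4.18 and -4.24 in WT after ENU, and -3.14 and -2.99 in KO and -5.12 and -4.22 in WT on vehicle. Ccl17 stood 10.6-fold (3.61-fold with normexp) higher in KO after ENU and 3.05-fold (1.18-fold with normexp) higher on vehicle, where 1 of 2 WT arrays was well above background. Ccl17 rose by 2.51 ± 0.49 (SE, limma adjusted p = 0.0321). That call was lost with normexp (1.05, limma adjusted p = 0.109), with quantile normalization and without WT vehicle array 1. Cxcl14, a ligand of epithelia and fibroblasts, had log2 levels of 1.91 and 1.92 in KO and 0.45 and 0.50 in WT after ENU, and 2.4 and 2.38 in KO and -1.45 and -1.44 in WT on vehicle, with all KO arrays above all WT arrays. It stood 2.71-fold higher in KO after ENU and 14.2-fold higher on vehicle. Its rise of 2.64 ± 0.632 (SE, limma adjusted p = 0.0474) lay close to the threshold, and the call was lost with quantile normalization (limma adjusted p = 0.0585) and without any 1 of 5 arrays.

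**Figure D2:**
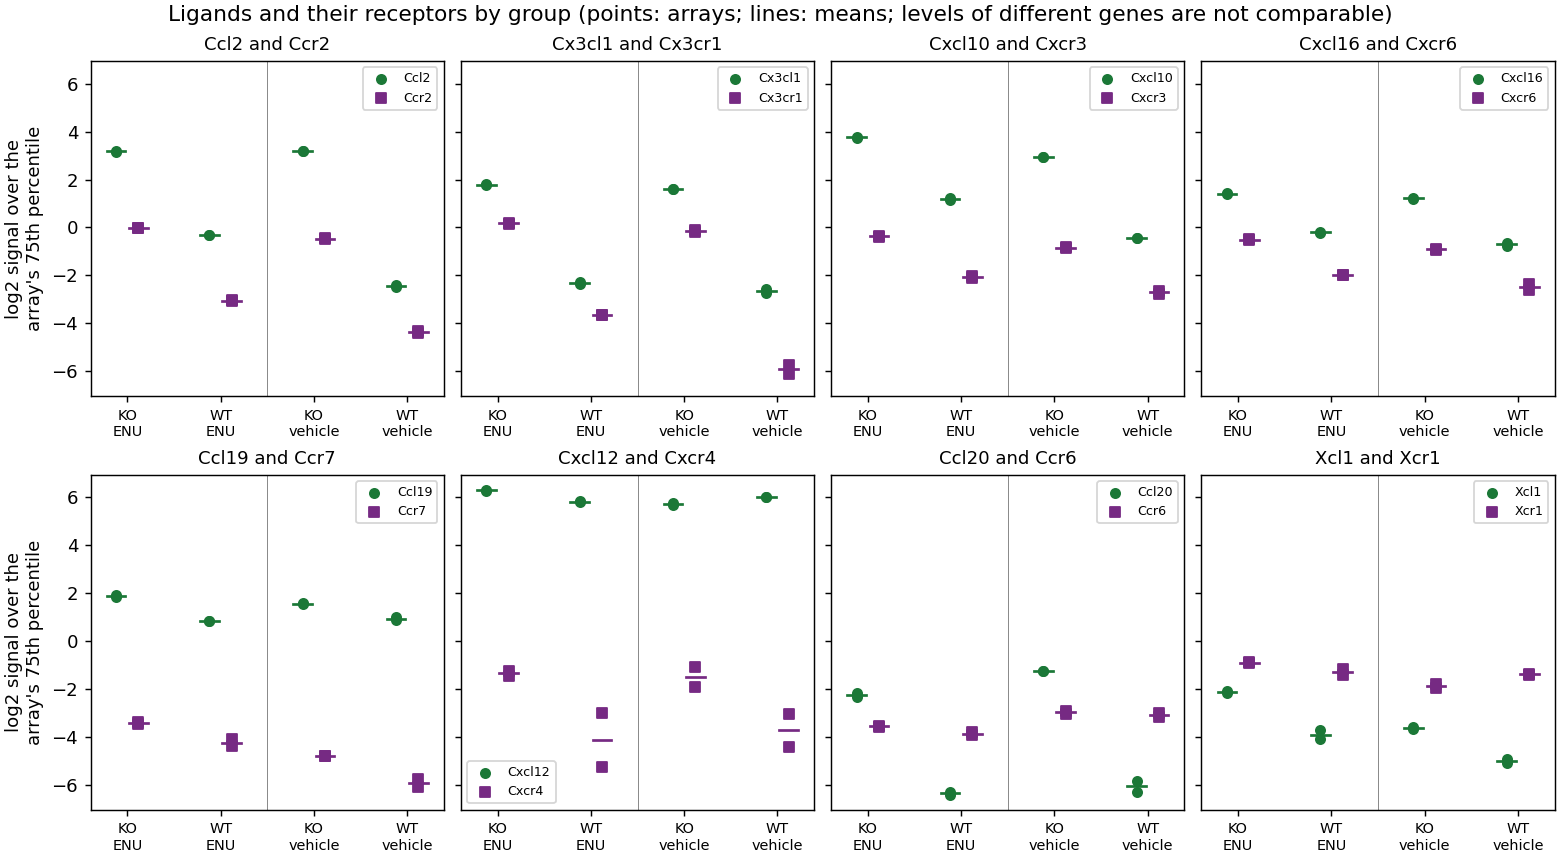
Each panel shows a ligand (green circles) and its receptor (purple squares) as the log2 signal over the array's 75th percentile, with 2 points for the arrays of each group and a line at their mean; heights of different genes cannot be compared. In the panels of Ccl2 with Ccr2, Cx3cl1 with Cx3cr1, Cxcl10 with Cxcr3, Cxcl16 with Cxcr6 and Ccl19 with Ccr7 ligand and receptor both lie higher in KO than in WT on either treatment, while Cxcl12 and Xcr1 lie lower in KO on vehicle and Ccr6 lies at nearly the same height in KO and WT. Groups not well above background are not marked here. These are WT on vehicle for Ccr2, Cx3cr1, Ccr7 and Xcl1, and WT on both treatments for Ccl20. With normexp the vehicle difference of Ccr7 was -0.197.

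Ligands of Cxcr2, the neutrophil receptor, gave a mixed picture. Cxcl1 had log2 levels of -0.033 and 0.054 in KO and 0.30 and 0.33 in WT after ENU, and 0.73 and 0.76 in KO and -0.33 and -0.44 in WT on vehicle, above WT in KO on vehicle (2.18-fold) and below WT after ENU (1.23-fold lower), and its difference of 0.41 ± 0.404 (SE, limma adjusted p = 0.462) did not pass. Cxcl5 was well above background on the KO ENU arrays alone, with log2 levels of -4.08 and -4.28 in KO and -6.78 and -7.38 in WT after ENU, and -5.28 and -4.97 in KO and -6.15 and -6.8 in WT on vehicle. Its rise of 2.12 ± 0.43 (SE, limma adjusted p = 0.0344) was lost with normexp (0.16, limma adjusted p = 0.439) and without WT vehicle array 2. Cxcl2 was not measured. Cxcr2, named Il8rb on the array and so outside the naming rule, had mean log2 levels of -3.13 in KO and -5.34 in WT after ENU, and -2.38 in KO and -5.76 in WT on vehicle, with 4 of 8 arrays well above background, and rose by 2.79 ± 0.347 (SE, limma adjusted p = 0.0158). Platelet factor 4 (Cxcl4), stored in platelet granules, had log2 levels of 2.37 and 2.38 in KO and 0.69 and 0.62 in WT after ENU, and 1.46 and 1.48 in KO and 0.31 and 0.38 in WT on vehicle and rose by 1.42 ± 0.235 (SE, limma adjusted p = 0.0242). Cxcl7, the other platelet ligand, had -0.74 and -0.74 in KO and -3.07 and -3.05 in WT after ENU, and -1.15 and -1.23 in KO and -1.43 and -1.47 in WT on vehicle as log2 levels. It stood 5.0-fold (2.83-fold with normexp) higher in KO after ENU and 1.2-fold higher on vehicle, and its difference of 1.29 ± 0.552 (SE, limma adjusted p = 0.145) did not pass.

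Ligands that place lymphocytes in lymphoid organs, gut and skin included both members that fell. Ccl27, known from skin, was read at chr4:41908195-41908254 (mm7) with log2 levels of -0.42 and -0.44 in KO and 1.18 and 1.17 in WT after ENU, and 0.057 and -0.055 in KO and 1.38 and 1.4 in WT on vehicle. It was 3.03-fold lower in KO after ENU and 2.61-fold lower on vehicle, and fell, with a log2 difference of -1.49 ± 0.188 (SE, limma adjusted p = 0.0161). Ccl25, known from gut and thymus, had log2 levels of -0.85 and -0.84 in KO and 1.0 and 1.02 in WT after ENU, and 0.030 and 0.036 in KO and 0.81 and 0.85 in WT on vehicle, was 3.62-fold and 1.74-fold lower in KO after ENU and on vehicle, and fell, with a log2 difference of -1.33 ± 0.323 (SE, limma adjusted p = 0.0488). That call was lost without any 1 of 6 arrays, without the filter on dim probes and with quantile normalization (limma adjusted p = 0.0704), while the difference itself hardly moved. Its receptor Ccr9 had log2 levels of -2.67 and -2.7 in KO and -3.64 and -3.42 in WT after ENU, and -2.08 and -2.0 in KO and -2.81 and -2.77 in WT on vehicle and rose by 0.80 ± 0.182 (SE, limma adjusted p = 0.0431), a call lost with normexp (0.26, limma adjusted p = 0.188), with 3 other settings and without WT ENU array 1.

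Ccl19, a Ccr7 ligand of lymphoid tissue, had log2 levels of 1.91 and 1.85 in KO and 0.86 and 0.82 in WT after ENU, and 1.55 and 1.58 in KO and 0.98 and 0.87 in WT on vehicle, with all KO arrays above all WT arrays. Its difference of 0.84 ± 0.207 (SE, limma adjusted p = 0.0501) missed the threshold, and passed it with normexp, quantile normalization, the mean of its 2 probes and an intensity trend. Ccl21c, the other Ccr7 ligand, had 1.48 and 1.45 in KO and 0.59 and 0.59 in WT after ENU, and -0.85 and -0.79 in KO and -0.42 and -0.38 in WT on vehicle as log2 levels, and its difference of 0.23 ± 0.374 (SE, limma adjusted p = 0.657) did not pass. Ccr7, which guides dendritic cells and naive T cells to lymph nodes, had log2 levels of -3.46 and -3.37 in KO and -4.39 and -4.1 in WT after ENU, and -4.81 and -4.78 in KO and -6.09 and -5.75 in WT on vehicle and was not well above background in WT on vehicle. Its rise of 0.98 ± 0.195 (SE, limma adjusted p = 0.0334) was lost with normexp (-0.029, limma adjusted p = 0.891), with quantile normalization and with an intensity trend. Cxcl13, the B cell attractant, had log2 levels of -1.38 and -1.41 in KO and -1.3 and -0.74 in WT after ENU, and -2.52 and -3.27 in KO and -1.57 and -1.51 in WT on vehicle, was 2.56-fold lower in KO on vehicle, and its difference of -0.86 ± 0.307 (SE, limma adjusted p = 0.102) did not pass. Its receptor Cxcr5, named Blr1 on the array, had mean log2 levels of -4.08 in KO and -4.41 in WT after ENU, and -4.96 in KO and -5.82 in WT on vehicle with 3 of 8 arrays well above background, and its difference of 0.59 ± 0.224 (SE, limma adjusted p = 0.115) did not pass.

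Of the eosinophil axis, Ccl24 had log2 levels of 2.24 and 2.26 in KO and 1.25 and 1.25 in WT after ENU, and 0.84 and 0.81 in KO and 0.46 and 0.44 in WT on vehicle, and its difference of 0.69 ± 0.241 (SE, limma adjusted p = 0.10) did not pass. Its receptor Ccr3 had -1.54 and -1.6 in KO and -1.26 and -1.24 in WT after ENU, and -3.54 and -3.99 in KO and -3.58 and -3.63 in WT on vehicle as log2 levels, differing by treatment and hardly by genotype, with a KO minus WT difference of -0.24 ± 0.185 (SE, limma adjusted p = 0.355). Ccl6 and Ccl9 are ligands known from rodents. Ccl6 ranged over log2 levels of 3.35 to 3.37 in KO ENU, 2.02 to 2.09 in WT ENU, 2.67 to 2.68 in KO vehicle, and 1.68 to 1.7 in WT vehicle, and rose by 1.15 ± 0.198 (SE, limma adjusted p = 0.0259). Ccl9 had its lowest log2 levels in WT vehicle, 4.0 to 4.01, and 4.58 to 4.74 on the other 6 arrays, and its difference of 0.28 ± 0.24 (SE, limma adjusted p = 0.406) did not pass.

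**Figure D3:**
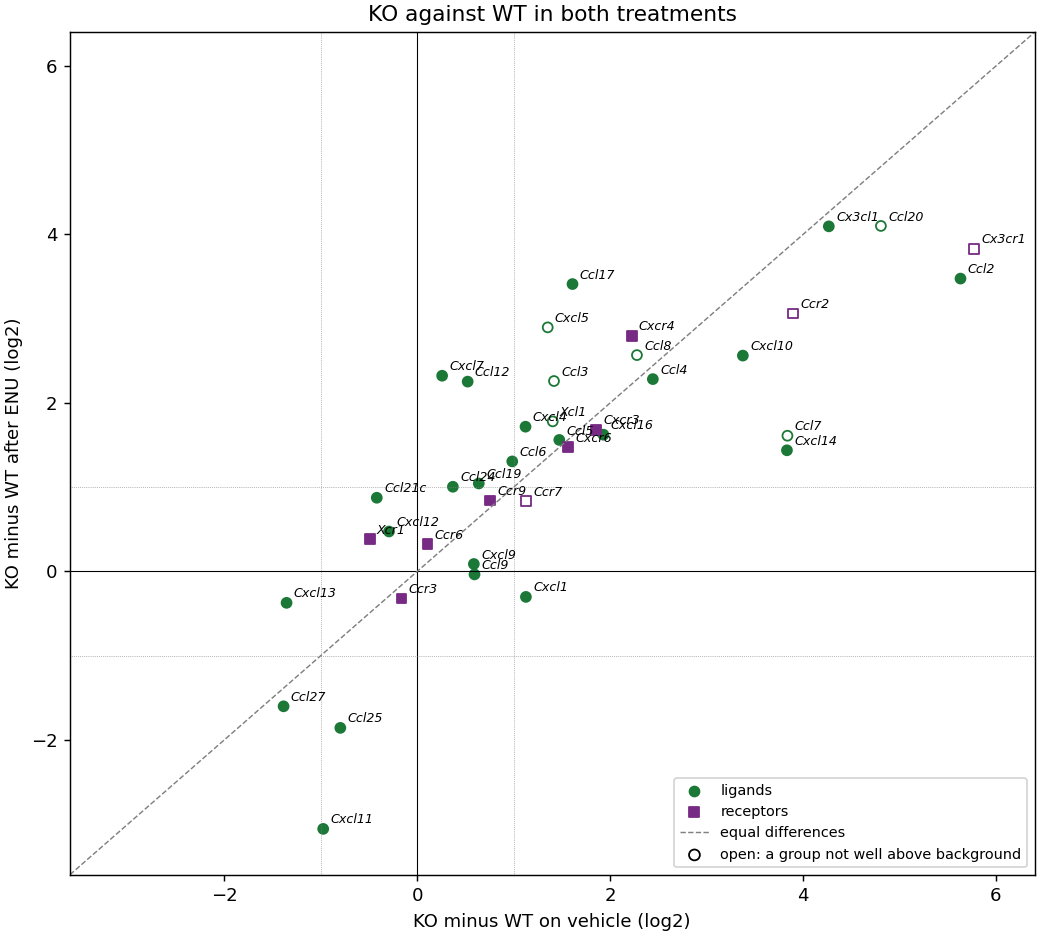
Each point is a measured member, with its KO minus WT log2 difference on vehicle on the horizontal axis and after ENU on the vertical axis; the dashed line marks equal differences, dotted lines 2-fold, and open points a group not well above background. Of the 39 members drawn 29 lie above 0 on both axes, all open points among them. Cxcl14 and Ccl7 lie far below the dashed line, and Ccl27, Ccl25 and Cxcl11 lie in the lower left. Of all 18137 measured genes 7848 lay above 0 on vehicle and 8210 after ENU, and the share above 0 on both was not counted.

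ENU was set against vehicle within each genotype, and no member passed the limma test of the treatment term over the 4 RNA samples (0 of 40, and 0% of all genes). At an unadjusted p under 0.05 there were 16 of 40 members (22.0% of all genes), of which 14 were above 0. Without a test, 10 members were more than 2-fold higher after ENU in KO (4.33% of all genes) and 1 lower (5.41%), and 14 were higher in WT (7.18%) and 1 lower (5.49%). Of those 14, 6 had no WT vehicle array well above background (Ccl7, Ccl8, Ccr2, Ccr7, Cx3cr1 and Xcl1), and with normexp the 14 became 6. Among the 27 members well above background on all arrays, 6 were higher in KO (22.2%, against 2.19% of genes of that kind) and 7 in WT (25.9%, against 4.90%). Past 2-fold in both genotypes were 6 members, where 1.80% of all genes were. Ccl5, Ccr3 and Cxcl9 were measured in every group, while for Ccl8, Ccr7 and Xcl1 the WT vehicle signals were near background and the difference in WT has no measured size.

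Ccr3 was 4.57-fold (2.19-fold with normexp) higher after ENU in KO and 5.1-fold (2.31-fold with normexp) higher in WT, with all ENU arrays above all vehicle arrays. Cxcl9 was 2.87-fold higher in KO and 4.06-fold higher in WT, and Ccl5 2.23-fold and 2.1-fold higher in KO and WT. Ccl8 was 4.48-fold (2.55-fold with normexp) higher in KO and at least 1.39-fold (1.16-fold with normexp) higher in WT, where its vehicle arrays were dim. Ccl17 and Ccl21c were higher chiefly in KO, by 4.79-fold (2.86-fold with normexp) and 4.88-fold, against 1.38-fold (1.07-fold lower with normexp) and 1.99-fold in WT. Cxcl13 and Ccl24 were 2.83-fold and 2.69-fold higher in KO, against 1.43-fold and 1.73-fold higher in WT. Ccl20 was 2.0-fold lower after ENU in KO, and Cxcl7 3.06-fold (1.99-fold with normexp) lower in WT.

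Ccl2, Cxcl10 and Cxcl14 had larger ENU differences in WT than in KO. Ccl2 was 4.38-fold (2.77-fold with normexp) higher after ENU in WT, against a log2 difference of -0.025 in KO, where it was already high on vehicle. Cxcl14 was 3.79-fold higher in WT and 1.39-fold lower in KO, and Cxcl10 3.11-fold higher in WT and 1.77-fold higher in KO. Even so, the WT ENU arrays of Ccl2, Cxcl10 and Cxcl14 stayed below the KO vehicle arrays. The ENU difference in KO was more than 2-fold above that in WT for 5 members (Ccl12, Ccl17, Ccl21c, Cxcl5 and Cxcl7; 4.33% of all genes) and more than 2-fold below it for 7 (Ccl2, Ccl7, Ccl25, Cx3cr1, Cxcl1, Cxcl11 and Cxcl14; 6.46%). The log2 size of that gap reached -2.4 for Cxcl14 and 2.06 for Cxcl7, and with 1 RNA sample a group it could not be tested. Ccl7 and Cx3cr1 had no WT vehicle array well above background, and Cxcl5 had such arrays in KO ENU alone. The WT difference of Ccl12 turned from -0.85 to 1.59 without WT vehicle array 1. With normexp the log2 ENU differences in KO and WT were 0.25 and 0.24 for Cx3cr1 and -0.0079 and 0.36 for Ccl7. They were 0.15 and -0.20 for Cxcl5 and -0.76 and 0.21 for Ccl25. The gaps of these genes were then below 2-fold, and the others stayed above it.

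**Figure D4:**
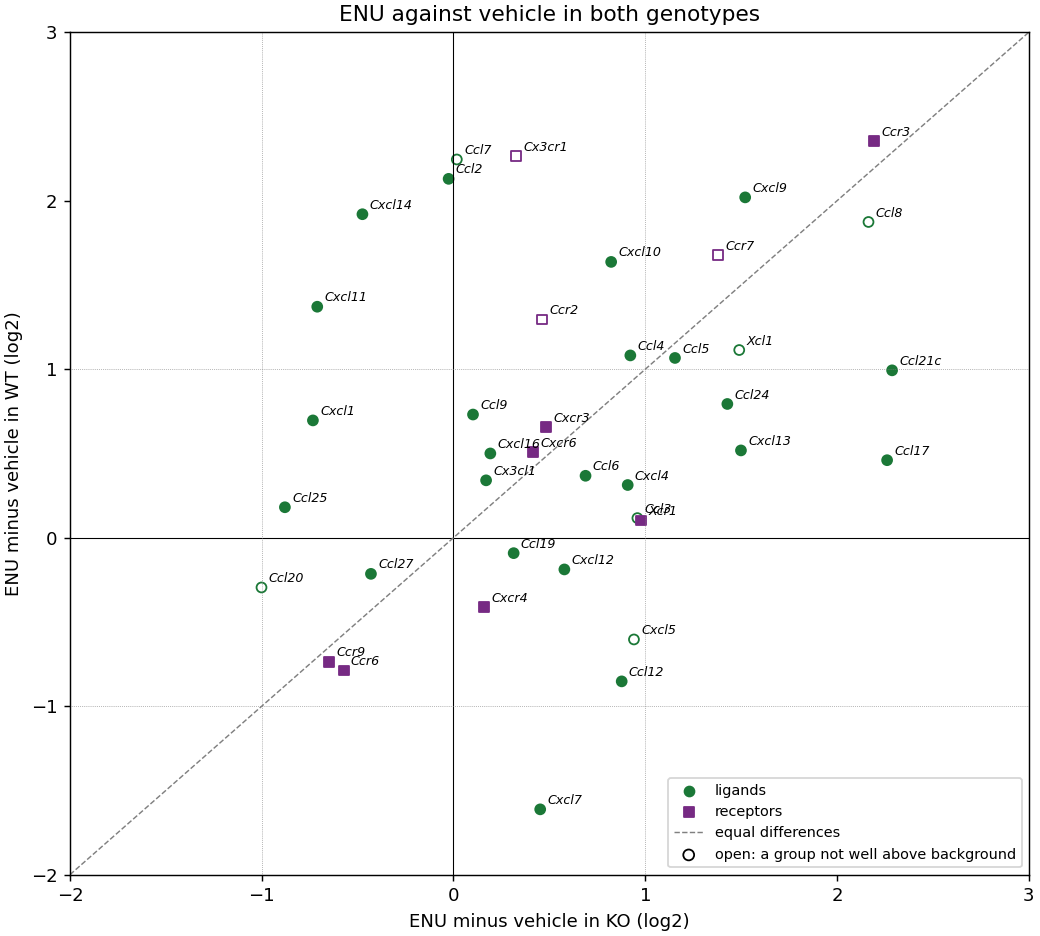
Each point is a measured member, with its ENU minus vehicle log2 difference in KO on the horizontal axis and in WT on the vertical axis; the dashed line marks equal differences and open points a group not well above background. Ccr3, Ccl8, Cxcl9 and Ccr7 lie at the upper right, Ccl2, Ccl7 and Cxcl14 high in WT but near or below 0 in KO, and Ccl17 and Ccl21c far to the right of the dashed line.

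Many members are neighbours on a chromosome, and 7 groups of members had probes within 200 kb of the next (mm7). On chromosome 11, Ccl2, Ccl7, Ccl11, Ccl12, Ccl8 and Ccl1 spanned 140 kb, and Ccl5, Ccl9, Ccl6, Ccl3 and Ccl4 spanned 139 kb. In the second group KO minus WT over both treatments rose for Ccl5, Ccl6, Ccl3 and Ccl4, while Ccl9, between Ccl5 and Ccl6, differed by 0.28 on the log2 scale and did not pass. On chromosome 5, Cxcl9, Cxcl10 and Cxcl11 lay within 38.1 kb, and their log2 differences were 0.34, 2.97 and -2.02 in that order along the chromosome. Cx3cl1 and Ccl17, on chromosome 8 within a span of 61.1 kb, both rose in KO, and Ccl22 beside them was not measured. The receptors of chromosome 9 from Ccr9 to Ccr2 covered 328 kb, in which Ccr9, Cxcr6 and Ccr2 rose while Xcr1 and Ccr3 did not pass, and Ccr1 and Ccr1l1 were not measured.

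**Figure D5:**
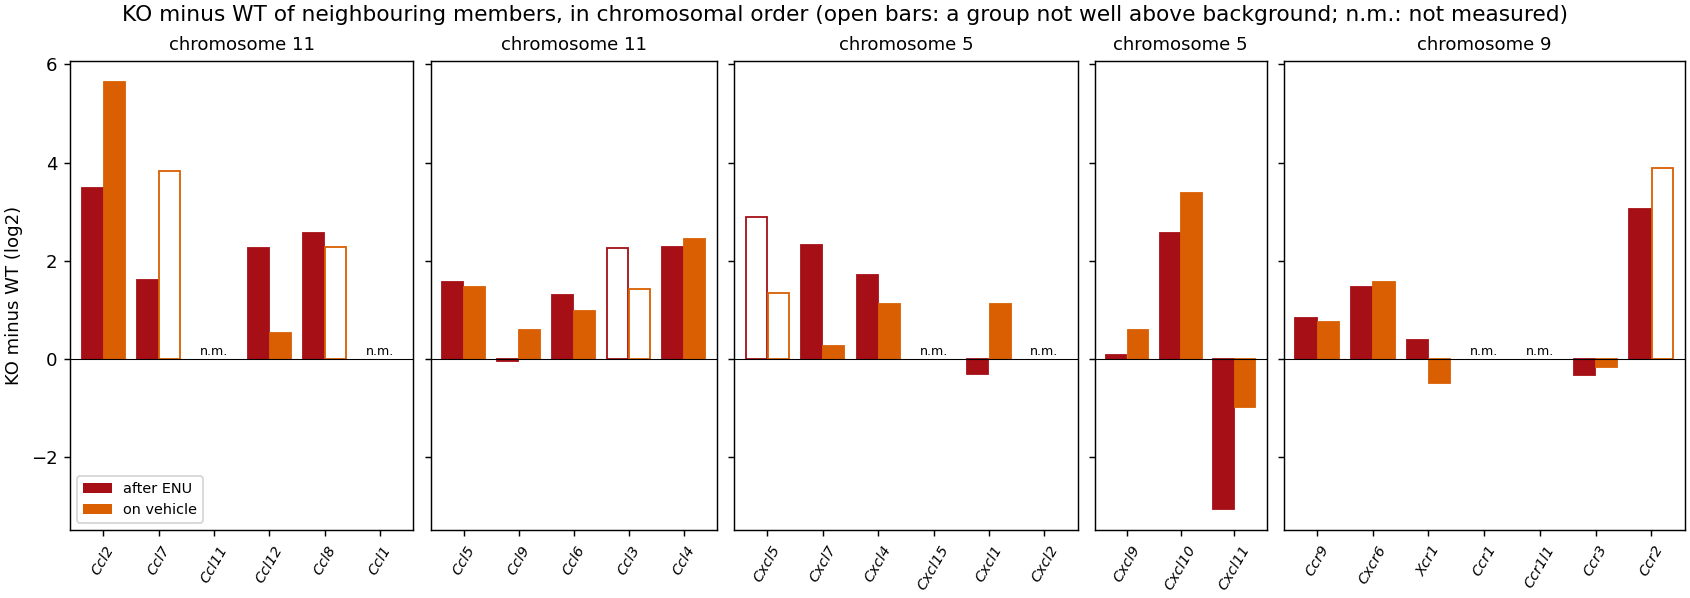
Bars give the KO minus WT log2 difference of neighbouring members in their order along the chromosome, after ENU (red) and on vehicle (orange), in 5 of the 7 groups of neighbours; open bars involve a group not well above background and n.m. marks a member that was not measured. Cxcl10 stands high between Cxcl9 near 0 and Cxcl11 below 0, and Ccr2 stands at the end of a row whose other members are lower.

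Promoter windows of 300 bases around the gene start were taken from RefSeq on GRCm38.p6 for 29 of the 40 measured members, 33 windows in all. They were searched on both strands for a kappaB form bound by NF-kappaB (GGGA, any base, TT, any base, CC), an interferon response form (GAAA, any 2 bases, GAAA) and a STAT form (TTC, any 3 bases, GAA). The kappaB form was in 4 of 33 windows (1.20% of all 32851 windows), the interferon form in 3 (3.44%) and the STAT form in 3 (8.30%). In the 16 windows of members that rose they numbered 1, 2 and 2. Windows are shown for 5 genes, the neighbours Cxcl10 and Cxcl9, which are adjacent, and of which the first alone rose, then Cxcl14 and Cx3cl1, which rose, and Cxcl1, whose ENU differences ran opposite ways in KO and WT. Letters in capitals are the matches, and matches of different forms do not overlap in these windows. Positions are chr5:92348840-92349139 (- strand) for Cxcl10, chr5:92328030-92328329 (- strand) for Cxcl9, chr13:56296502-56296801 (- strand) for Cxcl14, chr8:94771930-94772229 (+ strand) for Cx3cl1 and chr5:90890995-90891294 (+ strand) for Cxcl1, each written 5′ to 3′ on the strand of the gene.
Cxcl10: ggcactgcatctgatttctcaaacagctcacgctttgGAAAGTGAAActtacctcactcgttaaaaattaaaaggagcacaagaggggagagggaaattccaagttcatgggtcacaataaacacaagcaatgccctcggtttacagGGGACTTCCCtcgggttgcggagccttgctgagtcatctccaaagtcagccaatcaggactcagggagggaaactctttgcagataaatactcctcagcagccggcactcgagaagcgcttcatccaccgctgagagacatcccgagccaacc
Cxcl9: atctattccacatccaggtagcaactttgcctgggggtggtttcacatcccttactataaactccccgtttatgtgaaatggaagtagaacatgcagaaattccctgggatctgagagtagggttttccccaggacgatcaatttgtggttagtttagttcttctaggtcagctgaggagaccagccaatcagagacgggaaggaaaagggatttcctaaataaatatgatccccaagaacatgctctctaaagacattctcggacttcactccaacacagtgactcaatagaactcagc
Cxcl14: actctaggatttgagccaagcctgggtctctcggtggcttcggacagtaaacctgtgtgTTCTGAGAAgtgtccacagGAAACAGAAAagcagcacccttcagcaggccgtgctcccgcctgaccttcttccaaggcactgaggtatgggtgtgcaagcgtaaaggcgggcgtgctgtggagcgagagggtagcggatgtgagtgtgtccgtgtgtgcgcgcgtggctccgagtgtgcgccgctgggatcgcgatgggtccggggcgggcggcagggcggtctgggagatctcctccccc
Cx3cl1: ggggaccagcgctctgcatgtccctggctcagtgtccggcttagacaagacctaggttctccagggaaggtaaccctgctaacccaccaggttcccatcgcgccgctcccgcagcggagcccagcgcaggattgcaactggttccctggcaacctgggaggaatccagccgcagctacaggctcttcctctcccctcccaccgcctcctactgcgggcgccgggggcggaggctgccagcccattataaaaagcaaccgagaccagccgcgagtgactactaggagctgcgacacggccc
Cxcl1: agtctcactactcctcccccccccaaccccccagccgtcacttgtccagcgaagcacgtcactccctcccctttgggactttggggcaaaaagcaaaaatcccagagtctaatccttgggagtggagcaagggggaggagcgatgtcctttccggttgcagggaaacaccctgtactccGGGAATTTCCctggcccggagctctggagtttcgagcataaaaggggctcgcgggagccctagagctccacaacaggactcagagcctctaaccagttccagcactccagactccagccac

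The Cxcl10 window held an interferon form starting 213 bases and a kappaB form starting 103 bases before the start. The Cxcl14 window held a STAT form 191 bases and an interferon form 172 bases before it, and the Cxcl1 window a kappaB form 71 bases before it. No searched form was in the Cxcl9 and Cx3cl1 windows. These are matches of letters and no binding was measured.

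Other genes of the pathway were read from 4 lists, to be read against the 16.9% of all measured genes that rose and the 15.3% that fell. Of 12 genes of the chemokine system outside the naming rule (Pf4 and Ppbp, which are Cxcl4 and Cxcl7 again, among them) 4 rose in KO and 1 fell. Cd74, the receptor of Mif, rose by a log2 difference of 1.65 ± 0.208 (SE, limma adjusted p = 0.0161), Ccrl2 by 1.15 ± 0.181 (SE, limma adjusted p = 0.0225), and Cmklr1, the chemerin receptor, fell, with a log2 difference of -1.73 ± 0.24 (SE, limma adjusted p = 0.0184). The scavenging receptors Ackr1 and Ackr2, which bind chemokines without signalling for migration, had log2 differences of -0.77 and 0.0122 and did not pass. Of 20 measured signalling and migration genes out of 21, 11 rose and 0 fell (median log2 difference 1.20), among them Rgs2, a brake on G protein signalling, at 3.03 ± 0.311 (SE, limma adjusted p = 0.0126), and Coro1a, Dock2 and Pik3cg. Of 14 measured leukocyte adhesion genes out of 16, 10 rose and 0 fell (median 1.38), with Vcam1 at 1.95 ± 0.278 (SE, limma adjusted p = 0.0192) and Icam1 at 1.9 ± 0.201 (SE, limma adjusted p = 0.013). Of 19 measured inducers out of 20, 9 rose and 0 fell (median 0.80), with lymphotoxin beta (Ltb) at 3.61 ± 0.37 (SE, limma adjusted p = 0.0126) and Tnf at 2.34 ± 0.447 (SE, limma adjusted p = 0.0309), while Irf1 and Irf7 did not pass. Tnf and Pik3cg were well above background on 5 arrays alone and Dock2 on 6. Their mean log2 levels in WT on vehicle were -6.14, -5.36 and -5.09 in that order. The lowest signals well above background on the WT vehicle arrays were -3.83 and -4.48. The differences of Tnf, Pik3cg and Dock2 thus set KO levels against WT signals near background, and their sizes are not measured folds. No normexp values are given for these lists.

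Markers of leukocytes, stellate cells and bile duct cells moved with genotype beside the chemokine genes. Among all measured genes 16.9% rose and 15.3% fell, and the B, NK and dendritic cell lists, with 1 or 2 members risen, show little beyond that. All 10 measured of 11 neutrophil markers rose in KO, with a summed linear signal of 49.9 in KO and 7.22 in WT after ENU, and 36.1 in KO and 4.63 in WT on vehicle, in units of the array's 75th percentile. Of these, Elane and Mmp8 were well above background on 4 of 8 arrays and Ngp and Camp on 5. Their differences set KO levels against WT signals near background, and no normexp values are given for the marker lists. Of 12 measured monocyte and macrophage markers out of 13, 7 rose and 0 fell, with sums of 346, 141, 198 and 86.6 in the same order of groups, and among its markers of resident macrophages Marco rose by a log2 difference of 1.88 ± 0.282 (SE, limma adjusted p = 0.0206) and Adgre1 rose too, while Clec4f, Timd4, Vsig4 and Cd5l did not pass. Of 9 measured T cell markers out of 10, 6 rose and 2 (Cd3e and Cd4) fell, with sums of 4.05, 2.52, 3.17 and 2.26. B cell markers (6 of 8 measured, 1 rose), NK cell markers (5 of 8, 1 rose) and dendritic cell markers (6 of 8, 2 rose) had sums of 2.23, 1.56, 1.47 and 0.831, of 1.55, 0.992, 0.763 and 0.418, and of 2.05, 1.22, 1.59 and 1.01. Pax5, Blk, Ncr1, Klrk1, Eomes and Cd209a were not well above background on any array. Cholangiocyte markers (7 of 8 rose, sums 64.0, 9.05, 65.6 and 6.62) and stellate and fibroblast markers (5 of 9 rose, sums 71.5, 23.1, 63.0 and 15.6) were higher in KO too. Of 8 hepatocyte markers 0 rose and 4 fell, with sums of 987, 1550, 985 and 1750. Of 9 endothelial markers 0 rose and 1, Lyve1, fell, and on both treatments 3 lay above 0 and 6 below, with sums of 45.0, 68.1, 45.9 and 56.4. Each sum adds signals of different probes and is weighted to the brightest marker of its list. In KO after ENU these were Lyz2 (monocyte and macrophage, log2 level 7.26), S100a9 (neutrophil, 5.13), Spp1 (cholangiocyte, 5.46) and Alb (hepatocyte, 9.27). The part of these cell types in the chemokine differences was not tested.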

How the data were processed

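Liver RNA was labelled with Cy3 and read on 8 one-colour Agilent mouse arrays, 2 for each of 4 groups. The deposited intensities are processed signals, background-subtracted by Agilent Feature Extraction. Its version is 10.7.1.1 per the file headers and 10.5.1 per the submitters' processing notes. From these intensities log2 values were computed and each array's 75th percentile was subtracted. Control and outlier spots were dropped and spots of a probe averaged. Each gene was read by its brightest probe among those well above background on both arrays of at least 1 group. Gene names were updated through RefSeq, and probe positions are those of the files (mm7). Arrays of a group were averaged, and genotype and treatment were fitted over 4 RNA samples with limma 3.58.1 in R 4.3.3 with 1 residual degree of freedom. P-values were Benjamini-Hochberg adjusted over all 18137 measured genes, with a threshold of 0.05. In simulated data the fit recovered changes where many genes changed and called the largest alone where few did, so its calls lean on how many genes changed overall. Values on every array were given for the 24 members with the largest genotype differences, those past 2-fold with ENU in either genotype and the ligand and receptor pairs. Members and lists were chosen with earlier results of these data known. Alternatives were normexp with an offset of 50, quantile normalization, the median as the scale, no filter, the mean over probes, an intensity trend and leaving out each array. A member and a gene of another list are not reported here, though counts include them. The number of arrays limits the precision.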

Additional observations from a re-analysis of the deposited data

Results flagged for a closer look

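For 8 members the ENU minus vehicle difference had opposite signs in KO and WT, with the ENU and vehicle arrays of a genotype not overlapping, and the difference between the genotypes was not tested. The same count was not made over all genes, so whether 8 is many is not known. Arrays of a group are 1 RNA sample, so even small differences such as that of Ccl2 in KO meet this rule. In log2 units Ccl2 differed by -0.025 in KO and 2.13 in WT, and Cxcl14 by -0.47 in KO and 1.92 in WT. Cxcl11 differed by -0.71 in KO and 1.37 (0.73 with normexp) in WT, and Cxcl1 by -0.73 in KO and 0.696 in WT. Ccl25 differed by -0.88 in KO and 0.18 in WT. The opposite order was seen for Cxcl7, at 0.45 in KO and -1.61 in WT, for Cxcl12, at 0.58 in KO and -0.19 in WT, and for Ccl19, at 0.31 in KO and -0.091 in WT. Each value sets 1 RNA sample against 1.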

How the results depend on the processing

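The 24 members that rose in KO were 18 with normexp, 20 with quantile normalization and 22 to 25 when an array was left out. In the separate fit of genes well above background on all 8 arrays, a setting chosen after seeing the data, 13 rose and 3 fell. The 2 that fell were 1 with quantile normalization and 1 with no filter on dim probes, and 1 to 2 when an array was left out. Members more than 2-fold higher in KO on vehicle, 23, became 15 with normexp, and the 2 lower became 1 with normexp, 4 with the median as the scale and 1 to 4 when an array was left out. For ENU in KO the 1 lower member became 0 with normexp, 2 with no filter and 0 to 1 when an array was left out. For ENU in WT the 14 higher became 6 with normexp, and the 1 lower became 0 with normexp, 3 with no filter and 1 to 3 when an array was left out. The median ENU difference of receptors in WT turned to -0.104 with no filter. Log2 differences of KO minus WT that changed sign were Ccr6 (-0.17) and Ccr7 (-0.029) with normexp, Cxcl12 (-0.11) with the median as the scale, and Xcr1, between -0.13 and 0.013 when a WT ENU array was left out. With normexp KO minus WT changed sign on vehicle for Ccl12 (-0.42), Ccr6 (-0.21), Ccr7 (-0.197), Ccl3 (-0.021) and Cxcl5 (-0.0105), and after ENU for Ccr6 (-0.13) and Ccl9 (0.0059). ENU minus vehicle did so in KO for Ccl7 (-0.0079) and in WT for Ccl3 (-0.11) and Ccl17 (-0.094). The cause was not tested. The median KO minus WT difference of all measured genes on vehicle was -0.14, and -0.37 with the median as the scale. No paired analysis was possible because the pair of arrays in each group counted as 1 sample. The protein comparison of ligands was not run. Signal over background limits the members with a dim group.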
